A study of Mus musculus with 6 samples.

Results

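The small nucleolar RNA (snoRNA) host genes Snhg1, Snhg3, Snhg5, Snhg6, Snhg8, Snhg11, Snhg12, Snhg14, Gas5 and Epb41l4aos were measured by RNA-seq in interscapular brown adipose tissue (iBAT), the heat-producing fat pad between the shoulder blades. They were chosen by gene name, and are 10 of the 55703 genes in the deposited table. The 6 libraries came from C57BL/6 mice aged 8 weeks. In 3 libraries (Wtap flox/flox) both Wtap alleles carried loxP sites around exon 4 and no Cre was present. In the other 3 (Wtap-BKO) the same floxed alleles were combined with 1 copy of Ucp1-iCre, a Cre recombinase read from the Ucp1 gene through an internal ribosome entry site, so that Wtap is deleted in cells that express Ucp1 and not in the vessel, immune and connective tissue cells of the pad. WTAP belongs to the methyltransferase complex that places N6-methyladenosine (m6A) on RNA. The comparison of the groups shows how the host genes differ in a fat pad whose brown adipocytes were bred to lack it. The study calls its replicates biological, and the p-values measure the spread between these 3 libraries of each group.

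A snoRNA host gene carries snoRNAs in its introns, and the snoRNA is trimmed out of the intron after splicing. Box C/D snoRNAs guide 2′-O-methylation of ribosomal RNA (rRNA) and box H/ACA snoRNAs guide its pseudouridylation, and each works in a particle with a fixed set of core proteins. The spliced exons of many non-coding hosts are exported, read briefly by ribosomes and destroyed by nonsense-mediated decay (NMD), and several of these hosts begin with the terminal oligopyrimidine (TOP) tract known from mRNAs of ribosomal proteins.

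The hosts differed widely in what they carry. Gas5 held 10 annotated snoRNA entries in its span, Snhg1 held 8 and Snhg12 held 5. Snhg3, Snhg5 and Snhg11 held 2 each, and Snhg6, Snhg8 and Epb41l4aos held 1 each. Entries that overlap under different identifiers, as for Snord80 in Gas5 and Snora16a in Snhg12, are counted separately throughout. Snhg14, the long transcript of the imprinted Prader-Willi region, held 208, all 69 to 94 bases long. Of the 31 entries outside Snhg14 whose sequence was read here, 17 had both a C box and a D box. The C box was searched as TGATGA in the first 20 bases, and the D box as CTGA near the end. A further 8 had no such pair and held ACA close to the 3′ end, and 6 had neither the full pair nor that ACA. Among the 6, Gm22489, Snord78, Gm25894, Gm24453 and Snord22 had the D box but no exact match to the C box. The snoRNAs below represent both classes, from the reference transcripts of GENCODE M21 on GRCm38, with the C and D boxes, or the ACA, in capitals:
Gm25855 in Snhg1, chr19:8723993-8724064, plus strand: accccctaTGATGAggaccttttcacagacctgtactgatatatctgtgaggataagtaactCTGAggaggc
Snord47 in Gas5, chr1:161038082-161038158, plus strand: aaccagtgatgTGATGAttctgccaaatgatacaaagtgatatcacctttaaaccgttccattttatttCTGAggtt
Snord50a in Snhg5, chr9:88521529-88521600, minus strand: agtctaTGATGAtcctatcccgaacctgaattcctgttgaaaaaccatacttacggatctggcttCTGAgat
Snord50b in Snhg5, chr9:88521797-88521868, minus strand: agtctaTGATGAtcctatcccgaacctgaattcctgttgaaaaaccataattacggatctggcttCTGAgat
Snord87 in Snhg6, chr1:9942463-9942549, minus strand: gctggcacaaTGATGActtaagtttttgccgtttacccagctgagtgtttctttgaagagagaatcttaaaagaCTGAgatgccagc
Snord99 in Snhg12, chr4:132310691-132310764, plus strand: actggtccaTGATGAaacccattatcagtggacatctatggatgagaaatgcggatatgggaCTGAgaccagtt
Snora61 in Snhg12, chr4:132310240-132310369, plus strand: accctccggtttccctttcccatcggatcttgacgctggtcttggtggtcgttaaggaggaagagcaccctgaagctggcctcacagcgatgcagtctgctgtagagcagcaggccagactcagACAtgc
Snora24 in Snhg8, chr3:123507937-123508066, minus strand: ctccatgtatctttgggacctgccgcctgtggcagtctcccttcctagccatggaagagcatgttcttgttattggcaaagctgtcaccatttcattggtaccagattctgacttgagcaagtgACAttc
Gm25129 in Snhg11, chr2:158379534-158379666, plus strand: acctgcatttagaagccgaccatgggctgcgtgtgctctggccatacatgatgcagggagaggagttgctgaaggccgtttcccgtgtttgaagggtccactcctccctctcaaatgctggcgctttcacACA
Snora73a in Snhg3, chr4:132352775-132352979, minus strand: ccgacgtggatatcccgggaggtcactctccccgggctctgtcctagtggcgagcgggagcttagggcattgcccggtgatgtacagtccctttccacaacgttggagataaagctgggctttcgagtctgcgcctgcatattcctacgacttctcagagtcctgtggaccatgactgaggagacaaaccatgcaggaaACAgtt

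By these boxes, Gas5, Snhg1, Snhg5 and Snhg6 held box C/D snoRNAs, Snhg3, Snhg8 and Snhg11 held snoRNAs of the ACA kind, and Snhg12 held both. Both snoRNAs of Snhg5 are shown because they belong to one family. A match to these letters describes the sequence and does not show that the snoRNA was made. The snoRNAs themselves were hardly measured by these libraries. Of the 240 snoRNA rows within the 10 hosts, 3 had any reads, 12 in all over the 6 libraries, of which 9 came from Gm23639 in Epb41l4aos, 2 from Gm25129 in Snhg11 and 1 from Snord87 in Snhg6. Over all 1507 snoRNA rows of the table, 237 had reads, 3837 in all. Why the rows in these hosts held so few was not tested. The levels below are those of the host genes' own rows.

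The transcript starts of the hosts were searched for a TOP tract, defined as a C followed by at least 4 pyrimidines (C or T) on the strand of the gene. RefSeq promoters of GRCm38.p6 were matched by gene symbol for 8 of the 10 members, and Snhg6 and Epb41l4aos had none. The start matched to Snhg14, chr7:60450177, lies outside the span of the Snhg14 row measured here. A gene with several starts counted if any of them had the tract. The tract began at the annotated start base in 2 of the 8, or 25%, against 3.01% of all 27025 genes with a promoter and 24.1% of the 58 genes of cytosolic ribosomal proteins with one. Within 2 bases of the start it was found in 4 of the 8, or 50%, against 10.6% of all genes and 36.2% of ribosomal protein genes. Of the 12 other non-coding snoRNA hosts with a promoter, 0 had it at the start and 1 (8.33%) within 2 bases. The starts below show the 4 members with a tract and, for contrast, 2 with none within 5 bases of the start. Each window holds 70 bases with the start at base 36, and capitals mark the tract. For Gas5 the second of the annotated starts is shown, because the first has no tract:
Gas5, chr1:161035131-161035200, plus strand: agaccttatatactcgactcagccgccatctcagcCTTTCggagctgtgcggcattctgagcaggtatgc
Snhg8, chr3:123508302-123508371, minus strand: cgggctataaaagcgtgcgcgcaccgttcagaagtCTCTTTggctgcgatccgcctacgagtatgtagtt
Snhg12, chr4:132308643-132308712, plus strand: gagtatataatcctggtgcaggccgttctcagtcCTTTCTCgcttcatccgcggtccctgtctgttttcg
Snhg3, chr4:132353652-132353721, minus strand: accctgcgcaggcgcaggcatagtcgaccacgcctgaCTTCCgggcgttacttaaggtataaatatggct
Snhg5, chr9:88522863-88522932, minus strand: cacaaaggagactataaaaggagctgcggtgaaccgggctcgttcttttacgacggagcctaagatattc
Snhg1, chr19:8723452-8723521, plus strand: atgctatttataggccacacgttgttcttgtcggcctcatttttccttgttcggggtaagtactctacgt

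The letters TATAAA, searched on the gene's strand from 40 to 15 bases before the start, were present in Snhg5 and Snhg8, 2 of the 8 members, against 2.41% of all genes. In the windows printed above, both lie near the left end. A match does not show that either motif is used. For the other members with a promoter the letters were absent only from the bases searched, and the Snhg3 window holds TATAAA after its start.

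**Figure D1:**
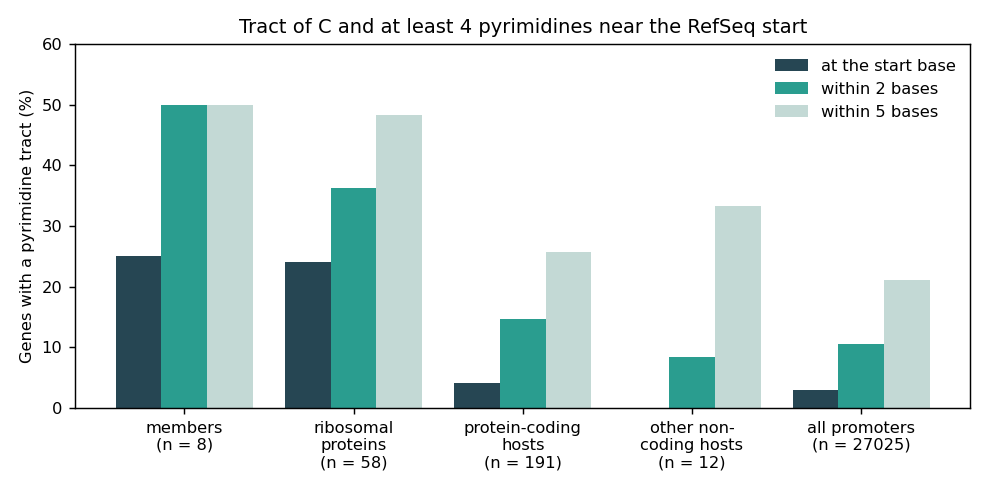
Share of genes (%) with a C followed by at least 4 pyrimidines at the RefSeq start base, within 2 bases and within 5 bases of it, for the members, ribosomal protein genes, 2 other sets of snoRNA hosts and all genes with a promoter; n is the number of genes with a promoter. At the start base the members stand at 25%, beside 24.1% for ribosomal protein genes and 3.01% for all genes.

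The libraries held 15979694 to 19005123 reads assigned to genes. The members together took 116 to 144 RPM (reads scaled to library size) in Wtap flox/flox and 107 to 162 in Wtap-BKO, with overlapping ranges. Wtap itself was at 8.00, 8.63 and 8.16 FPKM (fragments mapped to a gene, scaled by its length and by the size of the library) in Wtap flox/flox replicates 1 to 3 and at 11.8, 12.3 and 12.7 FPKM in the libraries labelled Wtap-BKO, a rise of 0.56 ± 0.09 (SE) on the log2 scale with a limma adjusted p of 0.0174. This call was lost without any 1 of the Wtap flox/flox libraries or without Wtap-BKO replicate 3 (highest adjusted p of 0.0747). A value over the whole gene does not measure exon 4 alone, so it checks neither the deletion nor the labels. All 8 brown adipocyte markers were detected, and 4 were called lower in Wtap-BKO at a limma adjusted p under 0.05, Ucp1 among them. Cox8b, Cidea and Dio2 were also lower in every Wtap-BKO library than in any Wtap flox/flox library, but were not called. Their summed level was 6459 to 8674 FPKM in Wtap flox/flox and 3415 to 4642 FPKM in Wtap-BKO, and Cox8b, Cidea and Ucp1 hold most of it. Elovl3, another of the 8, was on the other side, at 1.68, 0.964 and 0.192 FPKM in Wtap flox/flox and at 3.14, 18.9 and 7.89 FPKM in Wtap-BKO, but was not called (limma adjusted p of 0.0603). Of 9 macrophage markers 3 were called higher, and the fitted difference of each of the 9 was above 0. The sum of the 9 was 160.0 to 239 FPKM in Wtap flox/flox and 243 to 368 FPKM in Wtap-BKO. The sum of 12 skeletal muscle markers was 868 FPKM in Wtap flox/flox replicate 2 and 1404 FPKM in Wtap-BKO replicate 3, against 31.6 to 46.5 FPKM in the others. The part of these differences in the results below was not tested, and in bulk tissue fewer cells of a type and less RNA per cell cannot be told apart.

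Among the 10 hosts, Epb41l4aos, named as an antisense transcript beside Epb41l4a, was the only one called between the groups, and it was higher in Wtap-BKO. The others either varied as much within a group as between the groups or missed the threshold after adjustment. Snhg5 was higher in each Wtap-BKO library than in any Wtap flox/flox library, and Snhg11 was lower in each, but neither passed. A gene was called at a limma adjusted p under 0.05 over all 14289 genes whose mean reached 0.5 FPKM. Snhg3 and Snhg14 were below that level, and the other 8 members were above it in every library. Of these 8, 1 was called (12.5%), against 8.78% of all tested genes in either direction and 5.33% in the direction of a rise. No member was called lower, against 3.45% of all tested genes. At an unadjusted p under 0.05 there were 3 of 8, against 27.5% of all tested genes. The median log2 difference of the 8 was 0.18 (median over all tested genes −0.01), and 6 of 8 lay above 0. These shares are close to the background. Voom on the recovered reads called 0 of the 8, against 1404 of all 14289 tested genes.

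**Figure D2:**
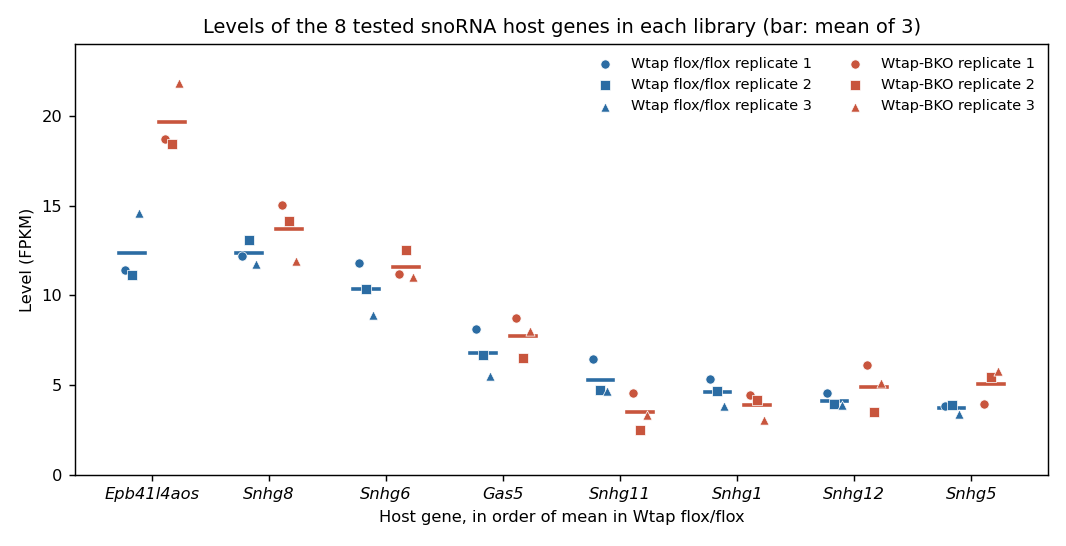
Level (FPKM, linear axis from 0) of the 8 tested host genes in each of the 6 libraries, ordered by the mean in Wtap flox/flox; bars are group means of 3 libraries and the symbol gives the replicate. The groups of Epb41l4aos (11.1 to 14.6 FPKM against 18.5 to 21.8 FPKM), Snhg5 and Snhg11 do not overlap, with the widest gap for Epb41l4aos.

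Epb41l4aos (ENSMUSG00000087590, chr18:33794892-33795986, plus strand, GRCm38.p6) is a lncRNA gene with 430 counted bases and no exon base shared with another gene. It was at 11.4, 11.1 and 14.6 FPKM in Wtap flox/flox replicates 1 to 3 and at 18.7, 18.5 and 21.8 FPKM in Wtap-BKO replicates 1 to 3. The lowest Wtap-BKO library lay above the highest Wtap flox/flox library. Groups separated in this way, with Wtap-BKO above, occurred in 17.5% of all tested genes. The means were 12.4 ± 1.91 and 19.7 ± 1.89 FPKM (SD, n = 3), a ratio of 1.59. The log2 difference was 0.67 ± 0.14 (SE), with a 95% interval of 0.344 to 0.996 and a limma adjusted p of 0.0335. Because the gene is short, these levels rest on 78 to 99 reads per library in Wtap flox/flox and 137 to 176 reads in Wtap-BKO.

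The call for Epb41l4aos was not stable. Leaving out 1 library at a time kept the difference between 0.59 and 0.79 on the log2 scale but gave adjusted p-values of 0.0385 to 0.118, and only the fit without Wtap flox/flox replicate 3 kept the call. Over all tested genes these fits called 219 to 1076, against 1254 with every library. Without both libraries that hold muscle transcripts the difference was 0.52, with an adjusted p of 0.280. That fit, with 2 libraries in each group, called 0 of all tested genes, so its lost call is not particular to Epb41l4aos. Voom gave 0.68 with an adjusted p of 0.0611.

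Snhg5 (ENSMUSG00000097195, chr9:88521050-88522929, minus strand) was the other host with all Wtap-BKO libraries on the higher side. It was at 3.86, 3.90 and 3.41 FPKM in Wtap flox/flox and at 3.95, 5.46 and 5.80 FPKM in Wtap-BKO. Wtap-BKO replicate 1 was hardly above Wtap flox/flox replicate 2, and the separation came from the other 2 libraries. The fit gave a log2 difference of 0.42 ± 0.17 (SE), with a 95% interval of 0.02 to 0.82 and an adjusted p of 0.165, so Snhg5 did not pass limma's test over all genes. Its counted bases include 8.32% that are snoRNA, and the printed Snord50a and Snord50b had no reads of their own.

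Snhg11 (ENSMUSG00000044349, chr2:158375638-158386145, plus strand), a host abundant in mouse neurons and listed as protein-coding in the table, was the host with the lowest fitted difference. It was at 6.45, 4.70 and 4.65 FPKM in Wtap flox/flox and at 4.58, 2.49 and 3.36 FPKM in Wtap-BKO. The groups did not overlap, but Wtap-BKO replicate 1 was hardly below Wtap flox/flox replicates 2 and 3. Groups separated with Wtap-BKO below occurred in 16.5% of all tested genes. The log2 difference was −0.61 ± 0.24 (SE), with a 95% interval of −1.19 to −0.03 and a limma adjusted p of 0.164. Neuron markers were near 0: the 6 listed genes summed to 0.256 to 0.362 FPKM in Wtap flox/flox and 0.503 to 0.626 FPKM in Wtap-BKO, and Syt1 had no reads. Snhg11 had 366 to 996 reads per library and 3919 in all, the highest total of the members.

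Gas5 (growth arrest specific 5; ENSMUSG00000053332, chr1:161034422-161038539, plus strand) holds the most snoRNAs of the hosts outside the Prader-Willi region. It was at 8.14, 6.70 and 5.53 FPKM in Wtap flox/flox and at 8.71, 6.52 and 7.99 FPKM in Wtap-BKO. The ranges overlapped, and Wtap flox/flox replicate 1 was above 2 of the 3 Wtap-BKO libraries. The log2 difference was 0.19 ± 0.18 (SE), with a 95% interval of −0.23 to 0.62 and a limma adjusted p of 0.525. The interval leaves room for a rise or a fall. The gene starts 427 bases from the start of Zbtb37, a zinc finger gene on the other strand whose span overlaps that of Gas5 by 428 bases. Zbtb37 had 1.29 ± 0.204 FPKM in Wtap flox/flox and 1.30 ± 0.159 FPKM in Wtap-BKO (SD, n = 3), with a log2 difference of 0.02 and an adjusted p of 0.957.

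Snhg1 (ENSMUSG00000108414, chr19:8723475-8726443, plus strand) also carries box C/D snoRNAs, but its fitted difference had the opposite sign. It was at 5.33, 4.65 and 3.84 FPKM in Wtap flox/flox and at 4.46, 4.16 and 3.06 FPKM in Wtap-BKO. The ranges overlapped, and the SD of each group (0.748 and 0.739 FPKM) was as large as the distance between the means of 4.61 and 3.89 FPKM. The log2 difference was −0.24 ± 0.19 (SE), with a 95% interval of −0.69 to 0.21 and a limma adjusted p of 0.450. Its divergent partner Slc3a2, the heavy chain of amino acid transporters at the cell surface, starts 106 bases away on the other strand. Slc3a2 was at 21.1, 19.7 and 14.7 FPKM in Wtap flox/flox and at 26.5, 19.1 and 23.4 FPKM in Wtap-BKO, a log2 difference of 0.32 ± 0.18 (SE) with an adjusted p of 0.304. The fitted values of the pair thus differed in sign, and neither passed the test.

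Snhg12 (ENSMUSG00000086290, chr4:132308623-132311024, plus strand), host of both snoRNA classes, was at 4.55, 3.96 and 3.88 FPKM in Wtap flox/flox and at 6.11, 3.52 and 5.09 FPKM in Wtap-BKO. Wtap-BKO replicate 2 was the lowest of the 6 libraries and Wtap-BKO replicate 1 the highest, so the Wtap-BKO group enclosed the control. The fitted difference on the log2 scale was 0.21 ± 0.21 (SE), with a 95% interval of −0.28 to 0.70 and a limma adjusted p of 0.554.

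Snhg6 and Snhg8, with 1 snoRNA each, differed little between the groups. Snhg6 (ENSMUSG00000098234, chr1:9941959-9944118, minus strand) was at 11.8, 10.3 and 8.90 FPKM in Wtap flox/flox and at 11.2, 12.5 and 10.99 FPKM in Wtap-BKO. Its ranges overlapped, and the log2 difference was 0.17 with a 95% interval of −0.14 to 0.47 and a limma adjusted p of 0.450. Snhg8 (ENSMUSG00000104960, chr3:123507552-123508404, minus strand) was at 12.2, 13.1 and 11.7 FPKM in Wtap flox/flox and at 15.04, 14.1 and 11.9 FPKM in Wtap-BKO. Wtap-BKO replicate 3 lay inside the range of the control. The fitted difference on the log2 scale was 0.14 with a 95% interval of −0.13 to 0.42 and a limma adjusted p of 0.472. Snhg6 shares 11.1% of its exon bases with Mcmdc2 on the other strand, but Mcmdc2 had at most 8 reads in a library, against 161 to 248 for Snhg6.

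Few reads were assigned to Snhg14 and Snhg3. Snhg14 (ENSMUSG00000100826, chr7:59307924-59975759, minus strand), which in mouse neurons runs antisense to the ubiquitin ligase gene Ube3a, had 50, 66 and 63 reads in Wtap flox/flox and 57, 42 and 34 reads in Wtap-BKO over 26093 counted bases. That is 0.106, 0.155 and 0.153 FPKM against 0.115, 0.0932 and 0.0695 FPKM, and the ranges overlapped. A fit with no filter gave a log2 difference of −0.31 ± 0.27 (SE) with a limma adjusted p of 0.614. Of the exon bases of Snhg14, 6.91% lie on exons of Ube3a on the other strand, and without the strand setting reads from these bases cannot be told apart. Ube3a was at 3.49, 3.46 and 3.05 FPKM in Wtap flox/flox and at 2.42, 2.67 and 3.08 FPKM in Wtap-BKO, with overlapping ranges, a log2 difference of −0.29 ± 0.14 (SE) and an adjusted p of 0.230. The other genes in its span were low: Gm38393 had 14 to 68 reads per library, Gm44829 had 0 to 10, A230103L15Rik had 0 to 5 and Gm44831 had none.

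Snhg3 (ENSMUSG00000085241, chr4:132348014-132353686, minus strand) had 3, 0 and 0 reads in Wtap flox/flox and 1, 0 and 3 reads in Wtap-BKO. No difference was detectable with so few reads, and the fit with no filter gave 0.20 ± 0.52 (SE) on the log2 scale with a limma adjusted p of 0.879. The value is also uncertain because Snhg3 shares 71.5% of its counted bases with Gm17300 on the other strand and 13.7% with Rcc1, the nucleotide exchange factor of Ran, on its own strand. Rcc1 had 3.21 ± 0.675 FPKM in Wtap flox/flox and 2.91 ± 0.413 FPKM in Wtap-BKO (SD, n = 3), with a log2 difference of −0.13 and an adjusted p of 0.705. Gm17300 had 23, 9 and 9 reads in Wtap flox/flox and 4, 5 and 13 reads in Wtap-BKO, with overlapping ranges.

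The order of the levels in Wtap flox/flox was Epb41l4aos, Snhg8, Snhg6, Gas5, Snhg11, Snhg1, Snhg12, Snhg5, Snhg14 and Snhg3 in FPKM, from 12.4 down to 0.0560 FPKM. The last place of Snhg3 is uncertain, because it shares 71.5% of its counted bases with Gm17300. Most neighbours in this order overlapped in their 3 libraries. The gaps were between Snhg6 and Gas5 and between Snhg5 and Snhg14. In Wtap-BKO, Epb41l4aos stood apart from Snhg8, at 19.7 against 13.7 FPKM, and Snhg11 moved from the fifth place to the eighth.

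This order depends on which bases a host is said to have. The length used for the deposited values equals all bases in any annotated exon, and 20 of the 25 Gas5 transcripts and 14 of the 18 Snhg1 transcripts in GENCODE are retained introns. The counted length of Gas5 was 3760 bases, whereas its longest transcript with no retained intron has 665, and for Snhg1 the lengths were 2969 and 709 bases. Of the counted bases, 17.8% in Gas5, 20.9% in Snhg1 and 19.6% in Snhg12 are snoRNA, where reads were nearly absent from the snoRNA rows. Per kilobase of that longest spliced transcript, a scale added after seeing the data, Gas5 rose from the fourth place to the first in Wtap flox/flox, at 38.4 ± 7.42 (SD, n = 3), apart from Snhg8 at 19.9 ± 1.13. Snhg1 moved from the sixth place to the third, at 19.3 ± 3.13. Epb41l4aos, with 430 bases on both scales, stayed at 12.4 and fell to the fifth place. This scale keeps all reads of a gene and changes only the length. Reads in retained introns, whose share was not measured, therefore raise the values, so they are not levels of spliced RNA alone. Changing the length cannot alter a difference between the groups for 1 gene beyond the effect of the pseudocount.

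**Figure D3:**
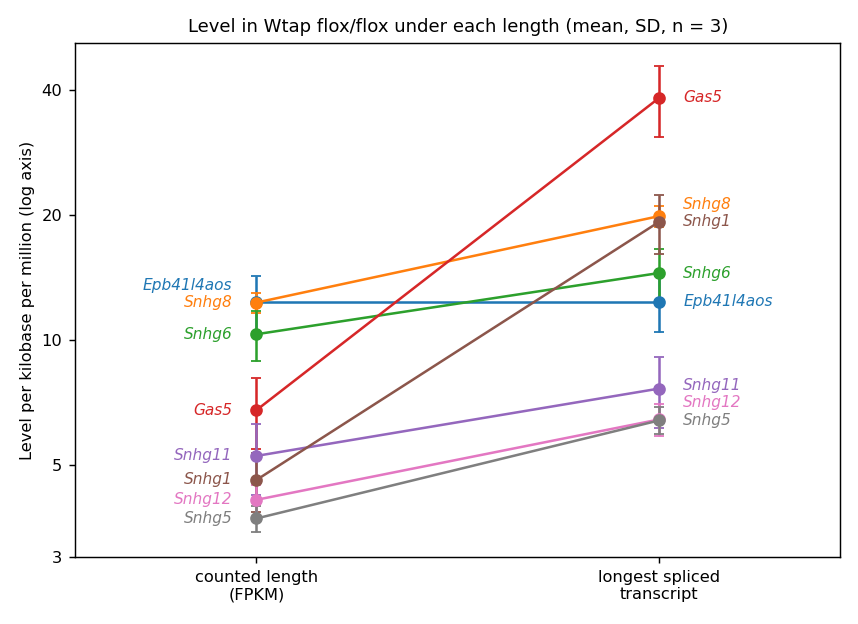
Mean level in Wtap flox/flox (SD, n = 3, log axis) of the 8 tested host genes, per kilobase of the counted length on the left (FPKM) and per kilobase of the longest transcript with no retained intron on the right. Gas5 goes from 6.79 to 38.4 and Snhg1 from 4.61 to 19.3, while Epb41l4aos stays at 12.4. All reads of each gene are kept on both scales.

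The hosts did not vary as a block across the 6 libraries. Wtap flox/flox replicate 3 held the lowest value of 4 of the 8 tested hosts (Snhg5, Snhg6, Snhg8 and Gas5), and Wtap-BKO replicate 1 held the highest value of 3 (Snhg8, Snhg12 and Gas5). On the log2 scale, Gas5 and Snhg12 had the most alike profiles (Pearson r of 0.833 over 6 libraries), followed by Epb41l4aos and Snhg5 (0.695). Snhg5 and Snhg11 were the most unlike (−0.798). All these points share the same libraries and the group difference, and the values are descriptions. The genes most like the mean profile of the 8 hosts were Mrpl45 (r of 0.994), a mitochondrial ribosomal protein, Zfp369 (0.989), a zinc finger protein, Fdx1 (0.979), the ferredoxin of mitochondrial cytochromes, Acer3 (0.978), an alkaline ceramidase, and Rras2 (0.968), a Ras-like GTPase. These 5 genes had the highest r among all tested genes outside the members. Over only 6 libraries, a choice from so many genes favours high values by itself. None of the 5 was called, with limma adjusted p-values of 0.339 to 0.518.

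A further 14 rows were listed as other non-coding hosts by name alone: Snhg with a number, Dancr, Zfas1, Rian and Meg3. Of these rows, 9 were tested. The untested rows include Snhg7os and another row of Snhg4, labelled protein-coding, with 3 reads in all. Of these 9, 0 were called by limma or by voom and 3 had an unadjusted p under 0.05, and their median log2 difference was 0.07. The shares over all tested genes were 8.78% called by limma and 27.5% at an unadjusted p under 0.05, and voom called 1404 of 14289. Zfas1, a host whose spliced RNA is known to bind ribosomes, was at 4.24, 4.84 and 4.73 FPKM in Wtap flox/flox and at 6.36, 5.85 and 6.74 FPKM in Wtap-BKO. Its groups were apart, as for Epb41l4aos, with a log2 difference of 0.45 ± 0.11 (SE) and an adjusted p of 0.0545. Zfas1 was called with a mean of at least 1 FPKM required (0.0445) and with TMM factors (0.0468). Snhg10 was at 0.522, 0.696 and 1.68 FPKM in Wtap flox/flox and at 1.69, 2.19 and 2.62 FPKM in Wtap-BKO. Here Wtap flox/flox replicate 3 nearly reached the lowest Wtap-BKO library, and the log2 difference was 1.22 ± 0.41 (SE) with an adjusted p of 0.112. Without that replicate Snhg10 was called, at 1.67 with an adjusted p of 0.0431. Over all 976 tested lncRNA genes, a list added after seeing the data, limma called 25 higher and 65 lower. That is 9.22%, against 8.78% of all tested genes. Their median log2 difference was −0.18, with 381 of 976 above 0, so the median of the hosts lay on the other side of 0.

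**Figure D4:**
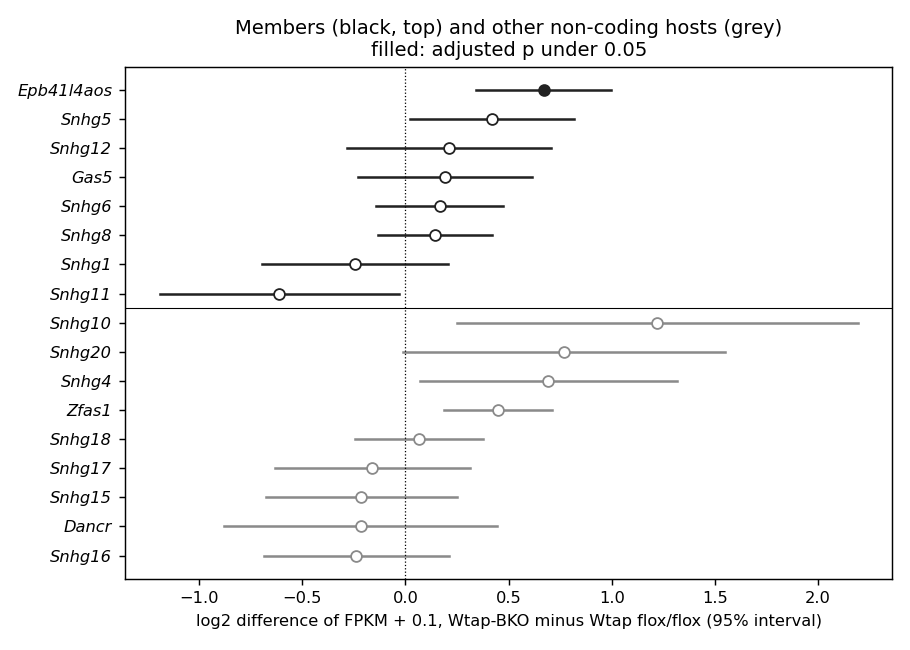
Fitted log2 difference of FPKM + 0.1 (Wtap-BKO minus Wtap flox/flox) with its 95% interval for the 8 tested members (black) and the 9 tested other non-coding hosts (grey); filled points have an adjusted p under 0.05. Epb41l4aos, at 0.67 with an interval of 0.344 to 0.996, is the filled point.

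Of 194 tested hosts that also code for protein, limma called 7 higher in Wtap-BKO and 3 lower (5.15%, against 8.78% of all tested genes). Their median log2 difference was −0.03. The 4 with the smallest p were all higher. Ybx3, a cold shock domain protein that binds RNA, rose from 44.6 ± 3.76 to 68.4 ± 5.21 FPKM (SD, n = 3; limma adjusted p of 0.0220). Tmem167, a membrane protein of the secretory route, rose from 2.85 ± 0.239 to 5.72 ± 1.25 FPKM (limma adjusted p of 0.0244). Slc49a4 rose from 4.93 to 7.27 FPKM, and Sh3d19, an SH3 domain protein, from 2.07 to 3.72 FPKM. The other 3 called higher were Kif13a, Eif4g1 and Slit3, and those called lower were Eif4a2, Rbmx and Oxsr1. Eif4g1, the scaffold of the cap-binding complex, rose from 74.9 to 104 FPKM, while Eif4a2, a helicase of the same complex, fell from 81.7 to 60.9 FPKM. The last 6 are named because they complete the called genes, and were chosen after their values were seen. With 1 library left out, each of the 10 calls was lost without any of the Wtap flox/flox libraries or Wtap-BKO replicate 2 or 3, except that Tmem167 kept its call without Wtap-BKO replicate 2. The adjusted p-values of Ybx3 then ranged from 0.0292 to 0.0859 and those of Eif4a2 from 0.0704 to 0.142.

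Of 8 core proteins of the snoRNA particles, 1 was called (12.5%, against 8.78% of all tested genes). Nhp2, which binds box H/ACA snoRNAs, was at 29.5, 26.1 and 24.5 FPKM in Wtap flox/flox and at 42.8, 44.7 and 33.8 FPKM in Wtap-BKO. Its groups did not overlap, and the log2 difference was 0.59 ± 0.14 (SE) with a limma adjusted p of 0.0466. The call was lost whichever library was left out (adjusted p-values of 0.0502 to 0.144). Voom called 2 of the 8, Nhp2 and Nop58, against 1404 of all 14289 tested genes. Nop58, a core protein of box C/D particles named here after its values were seen, was at 2.66, 2.67 and 2.03 FPKM in Wtap flox/flox and at 1.67, 1.46 and 1.48 FPKM in Wtap-BKO. All Wtap-BKO libraries were below all controls, with a log2 difference of −0.63 ± 0.16 (SE), a limma adjusted p of 0.0633 and a voom adjusted p of 0.0354. Of 10 assembly factors none was called by limma or voom, with 1 at an unadjusted p under 0.05, against 27.5% of all tested genes. The assembly factor with the smallest p, Znhit6, needed for box C/D particles, was at 4.32 ± 0.222 and 3.54 ± 0.200 FPKM (SD, n = 3; limma adjusted p of 0.149), and Nolc1, a nucleolar chaperone of these particles, at 12.1 ± 1.03 and 15.4 ± 2.63 FPKM (limma adjusted p of 0.187).

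The machinery that destroys spliced host RNA gave no call. Of 15 NMD and exon junction complex genes, 0 were called by limma or voom. Of all tested genes, limma called 8.78% and voom 1404 of 14289. An unadjusted p under 0.05 was found for 2, against 27.5% of all tested genes, and the median log2 difference was −0.05. Upf3b, which links the exon junction complex to the decay factors, was at 5.46 ± 0.662 and 4.38 ± 0.141 FPKM (SD, n = 3; limma adjusted p of 0.169). Casc3, a core protein of that complex, was at 11.5 ± 0.569 and 9.80 ± 0.401 FPKM (limma adjusted p of 0.173).

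Lists of mRNAs known for the TOP tract gave no call either. For comparison, limma called 8.78% of all tested genes, and 27.5% of them had an unadjusted p under 0.05. Voom called 1404 of 14289. Of 79 cytosolic ribosomal protein genes, 0 were called by limma or voom and 3 had an unadjusted p under 0.05, with a median of −0.06, log2 differences of −1.66 to 0.64 and 24 of 79 above 0. Rpl35a had 32.8 ± 1.75 FPKM in Wtap flox/flox and 26.7 ± 2.85 FPKM in Wtap-BKO (SD, n = 3; limma adjusted p of 0.132), and Rpl10 at 102 ± 0.607 and 119 ± 0.666 FPKM (limma adjusted p of 0.137). Of 14 other TOP mRNAs, 0 were called by either tool and 4 had an unadjusted p under 0.05, with a median of 0.07. The elongation factors Eef2 and Eef1d had the smallest p, with log2 differences of 0.35 and 0.34 and limma adjusted p-values of 0.0758 and 0.0797.

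Of 20 genes of RNA polymerase I and rRNA processing, which make and trim the rRNA that snoRNAs modify, 1 was called. That is 5%, against 8.78% of all tested genes. Polr1d, a subunit shared by RNA polymerases I and III, was at 25.7, 27.4 and 23.98 FPKM in Wtap flox/flox and at 37.6, 43.2 and 37.6 FPKM in Wtap-BKO. All Wtap-BKO libraries were above all controls, and the log2 difference was 0.62 ± 0.10 (SE) with a limma adjusted p of 0.0198. Separation in this direction occurred in 17.5% of all tested genes. Without any 1 of the Wtap flox/flox libraries or without Wtap-BKO replicate 3 the call was lost (0.0325 to 0.0764 over all libraries left out). The median of the list was 0.08.

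**Figure D5:**
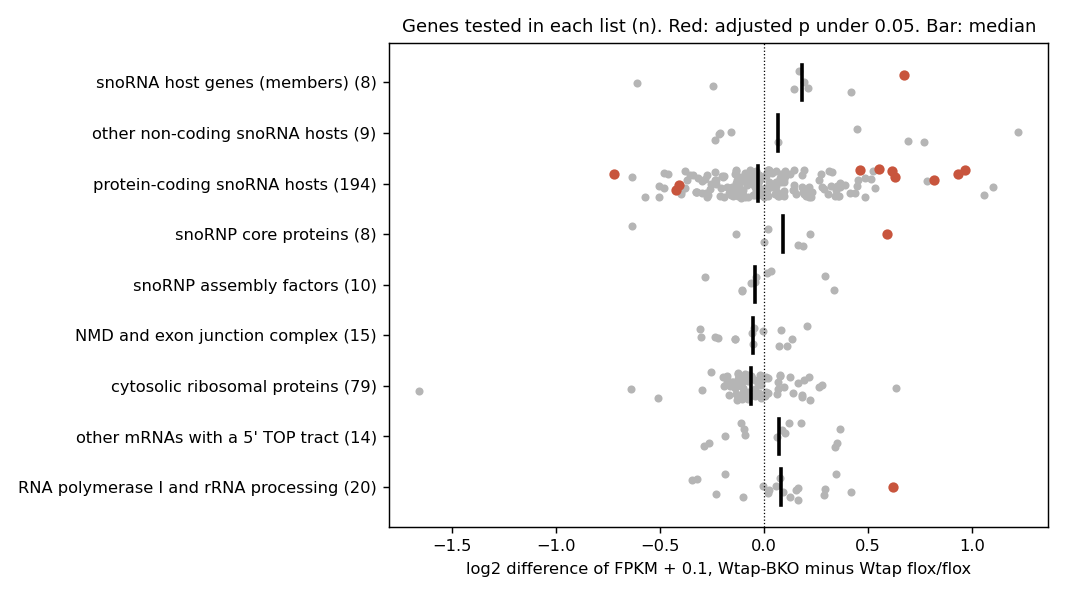
Fitted log2 difference of FPKM + 0.1 (Wtap-BKO minus Wtap flox/flox) of each tested gene in 9 lists, with the number tested in brackets; red points have an adjusted p under 0.05, black bars are list medians, and the vertical spread of points carries no value. The medians lie between −0.06 and 0.18, and the members hold 1 red point of 8.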

How the data were processed

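The authors aligned paired-end reads to GRCm38.p6 with HISAT2 2.0.5, counted them per gene with featureCounts 1.5.0-p3 and compared groups with DESeq2 1.16.1. Of the strand setting, nothing is given in the sources used here. FPKM was the unit deposited, and the authors had already scaled it between libraries: each FPKM corresponded to a whole number of reads (within 0.01), and the library sizes behind them matched median-of-ratios size factors. Reads were recovered by division and used only for depth, filters and voom. Their totals, 15979694 to 19005123, give libraries of similar precision.

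In R 4.3.3 with limma 3.58.1, log2(FPKM + 0.1), which understates changes of low genes, was fitted with group as the only term and a mean-variance trend, for genes whose mean reached 0.5 FPKM with 10 reads in total. P-values were two-sided and adjusted by Benjamini-Hochberg over all genes tested. On simulated data the fit was tested with known changes. Libraries of the same group differed beyond counting noise and each counted as 1 replicate. The members and lists were chosen with earlier results of these data known.

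Named genes were all members, genes that overlap a member or start divergently from it, the called genes of each of 8 lists (at most 4, or, with none, the 2 with the smallest p), the 5 genes most like the mean member profile, and Wtap. Alternatives were other pseudocounts (1 and 0.01), filters, scalings, voom, no trend, a robust variance, a replicate block and libraries left out. Length per longest spliced transcript and the lncRNA list were added after seeing the data. Promoters came from RefSeq (GRCm38.p6), and snoRNA sequences and exons from GENCODE M21, where 55154 of the 55703 gene identifiers were found. For every member the bases in annotated exons equalled the counted length.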

Additional observations from a re-analysis of the deposited data

How the results depend on the processing

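None of the 8 tested members changed the sign of its fitted difference in the 18 alternatives, and of these 8 only Epb41l4aos was called in any. Snhg3 and Snhg14 were fitted with no filter alone and were not called. For Epb41l4aos the call (0.67) was lost with no filter (0.67), with no variance trend (0.67), by voom (0.68) and without both libraries with muscle transcripts (0.52), so that the number of members called went from 1 to 0 under each. It was kept under both other pseudocounts, a mean of at least 1 FPKM, TMM, library size alone, factors without mitochondrially encoded genes and a robust variance. Leaving out 1 library at a time gave 0.59 to 0.79, with 0 to 1 members called. The genes called over the whole table went from 1254 to 687 with no filter, 0 without both libraries with muscle transcripts, where each group has 2 libraries, and 219 to 1076 with 1 library left out. Over the 8 lists the called genes went from 12 to 4 with no filter, 5 with no variance trend, 0 without both libraries, 0 to 11 with 1 left out, 15 with a mean of at least 1 FPKM or by voom, and 14 with library size alone or TMM. Same-numbered replicates did not deviate together (r of −0.03, −0.27 and −0.17), so expression gave no sign of a pairing by number. These values cannot exclude that samples were paired in breeding or handling. With the replicate block Epb41l4aos stayed at 0.67 (adjusted p of 0.0611), 0 members and 0 list genes were called, and 162 genes in all. Library size alone moved the median of all genes by 0.08 on the log2 scale. Snhg3, with 7 reads in all, and the snoRNAs of the hosts, with 12, give values of low precision. The cause of the lost calls was not tested.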
